A study of Homo sapiens with 4 samples.

Results

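A set of 8 human genes of the muscle contractile apparatus and its desmin scaffold was followed through a pull-down of RNA from RD cells, an established cell line from an embryonal rhabdomyosarcoma, a tumour of the skeletal muscle lineage. The genes were DES, TNNT1, TNNT2, TTN, NEB, MYH3, MYH8 and ACTC1, and they were looked up by name among 20056 annotated protein-coding genes. A peak was counted for a gene when it overlapped the gene's RefSeq span on GRCh38 by at least 1 base, with strand ignored. The pull-downs used biotinylated antisense probes. The even set and the odd set were both directed at exon 2 of ZNF609, the exon of the circular RNA circ-ZNF609, and the control set was directed at the bacterial LacZ mRNA. All 3 pull-downs came from this 1 line, the labels name no treatment or genotype that sets them apart other than the probes, and each probe set had 1 library. The sample of total lysate was not analysed here, so how strongly an RNA was recovered cannot be told apart from how abundant it was in the cells. The even, odd and LacZ lists held 502, 542 and 722 peaks. There were no replicates, so values describe these libraries and differences between probe sets have no test.

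The sarcomere is the contractile unit of striated muscle, in which thick filaments of myosin pull on thin filaments of actin. Troponin and tropomyosin on the thin filament make contraction depend on calcium, nebulin runs along the thin filament, and titin spans from the Z-disc to the middle of the sarcomere. Desmin forms intermediate filaments that tie neighbouring Z-discs to each other and to the cell membrane. Rhabdomyosarcoma cells are known to express many of these genes, often in embryonic forms, without completing muscle differentiation.

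Even probes gave peaks in 5 of the 8 genes, odd probes in 3 and LacZ probes in 1. Over all protein-coding genes, 1.54% had an even peak, 1.64% an odd peak and 2.22% a LacZ peak. The 8 genes were chosen with earlier results of these data known, so these counts describe the set and do not test it. The genes were DES, TNNT1, TNNT2, NEB and ACTC1 in the even list, DES, TNNT1 and TNNT2 in the odd list, and TNNT2 in the LacZ list. DES and TNNT1 were the 2 found with both ZNF609 probe sets and without a LacZ peak, a class that held 4.96% of the 847 protein-coding genes with a peak in any list. TNNT2 was the 1 with peaks in all 3 lists, as had 5.31% of those 847 genes. NEB and ACTC1 had an even peak alone, as had 21% of them, and each of these peaks also lies in another gene. TTN, MYH3 and MYH8 had no peak in any list.

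The gene set had 10 even peaks, 13 odd peaks and 5 LacZ peaks, at 15 different places. Peak strength is given as reads per bin, where a bin is 170 bases and the value of a wider peak is the mean over its bins. These are reads as deposited, not scaled to library size. The even peaks of the gene set held 8155 of 482418 reads in peaks (1.69%, exact 95% interval 1.65 to 1.73). The odd peaks held 9763 of 279415 (3.49%, 3.43 to 3.56), and the LacZ peaks held 643 of 219401 (0.293%, 0.271 to 0.317). The share of reads was highest in the odd list and lowest in the LacZ list, beyond counting error, and TNNT2 carried most of it in each list. It also depends on the strongest peaks of a list, which reached 21973 even and 2324 odd reads per bin. Counted by peaks, the gene set made up 1.99% (0.959 to 3.63) of the even list and 2.40% (1.28 to 4.07) of the odd list. In the LacZ list it made up 0.693% (0.225 to 1.61), and these 3 intervals overlapped. They treat peaks as independent, although many were peaks of TNNT2 alone, so their overlap decides nothing between the lists. Without TNNT2, a setting added after the values were seen, the shares of reads were 0.629% even, 1.15% odd and 0% LacZ. With peaks at p-values below 0.001 they were 2.89%, 7.15% and 0%. Reads carried no molecular identifiers that are known from the labels, so these intervals and those that follow cover counting error alone.

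TNNT2 supplied most of the peaks. It encodes cardiac troponin T, the tropomyosin-binding subunit of troponin, which is also made in embryonic skeletal muscle. Its span (gene ID 7139) runs over chromosome 1, 201359014 to 201377680, on the minus strand. It had 5 even, 8 odd and 5 LacZ peaks. No protein-coding gene had more odd peaks than TNNT2, whereas 3 genes had more even peaks and 3 had more LacZ peaks. The median protein-coding gene with a peak had 1 peak in each list. By reads in its peaks TNNT2 stood at rank 15 of 309 genes in the even list and at rank 2 of 328 in the odd list, against rank 64 of 445 in the LacZ list.

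All 5 LacZ peaks of TNNT2 occupied the same bases as an even and an odd peak. The strongest place by reads per bin in every list was chromosome 1, 201368061 to 201368230, with 1276 even, 1264 odd and 139 LacZ reads per bin. A neighbour 170 bases away, at 201367721 to 201367890, had 936 even, 601 odd and 75 LacZ reads per bin. At these adjoining places the even and odd values lay within 1.56 times of each other, and the LacZ values were the lowest.

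Nearer the start of the gene, the peak at 201371971 to 201372310 had 786 even, 1051.5 odd and 127 LacZ reads per bin. The peak at 201373161 to 201373330 had 575 even, 755 odd and 79 LacZ reads per bin. Here the odd value was the highest of the 3 lists. The fifth common peak, at 201366701 to 201367040, was the weakest of the 5 in each list, with 381 even, 336 odd and 48 LacZ reads per bin.

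The odd probes gave 3 further TNNT2 peaks, all nearer the end of the gene than the common ones. They lay at 201365171 to 201365340 with 295 reads per bin, at 201364151 to 201364490 with 275.5 and at 201363301 to 201363470 with 305. They began 12340, 13190 and 14210 bases from the annotated start of a gene of 18667 bases. Neither the even nor the LacZ list had a peak there. Each listed peak also has an unnamed score. In the order above, even peaks of 1 bin with a like score (within 2 of its smallest steps) were listed from 108, 108 and 128 reads upward. Such LacZ peaks were listed from 38, 38 and 43 reads upward. The 8 places together stretched over 10030 bases, and no exon positions were available to place them in exons or introns.

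**Figure D1:**
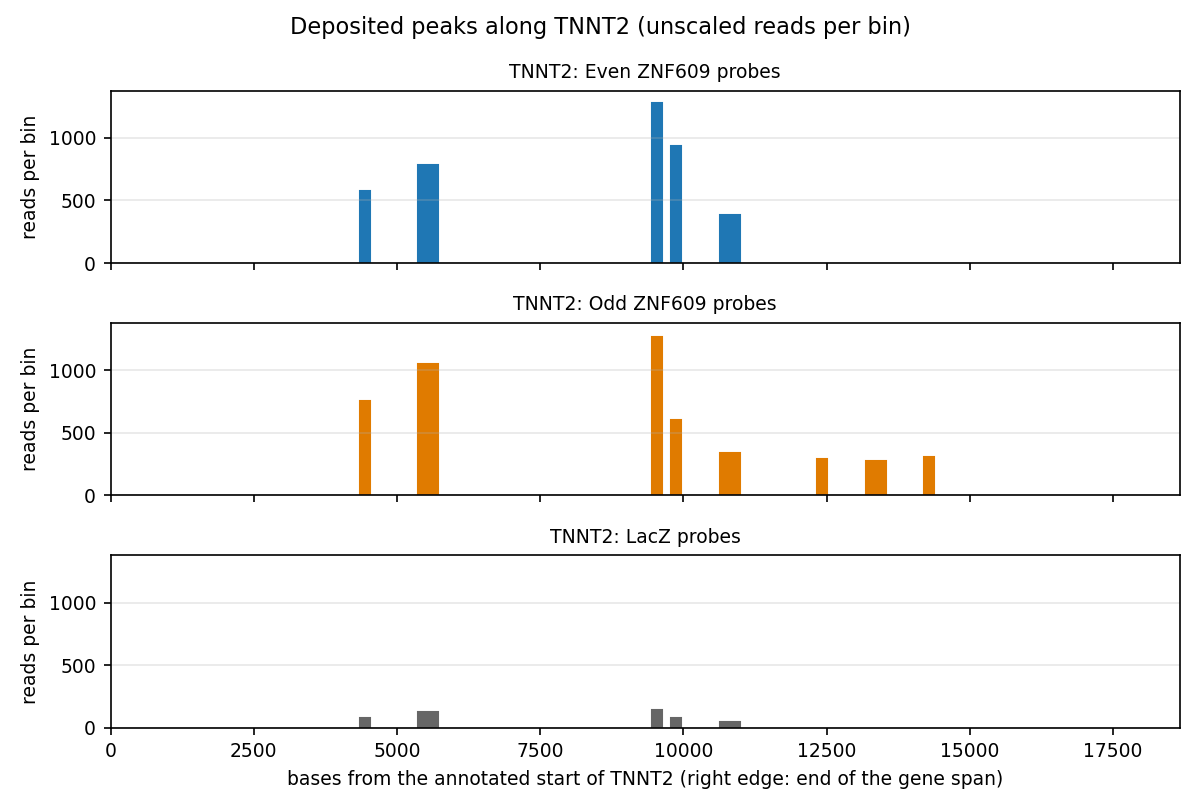
Peaks along TNNT2 by distance from the annotated start of the gene in bases, with the height of each bar giving unscaled reads per bin and its width the peak's width. The same 5 places appear with even, odd and LacZ probes, at heights of 381 to 1276, 336 to 1264 and 48 to 139, and 3 more appear with odd probes alone.

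The common TNNT2 peaks were then ranked, each against its own list. By reads per bin they stood at ranks 25, 44, 61, 106 and 178 of 502 even peaks. Among the 542 odd peaks they stood at ranks 8, 15, 28, 45 and 145. In the LacZ list they stood at ranks 273, 314, 484, 509 and 656 of 722, so that 2 of the 5 lay above the middle of that list, as did all 5 in the even and odd lists. The deposited p-values were 6.16e-08 to 0.000123 in the even list and 1.20e-06 to 3.70e-05 in the odd list, against 0.00174 to 0.00669 in the LacZ list. With a stricter limit of 0.001 on the p-value, TNNT2 kept its 5 even peaks and had 0 LacZ peaks, so whether TNNT2 counts as shared with the control depends on that limit.

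Because reads are not scaled, the ratio between lists at TNNT2 was read against the same ratio in the other regions that had a peak in every list. There were 39 such regions in 28 genes or gene pairs, and TNNT2 held 5 of them, the most of any gene. CREBBP and RBM25 followed with 3 each. The unscaled even to LacZ ratio was 6.19 to 12.5 in the TNNT2 regions, at ranks 4 to 10 of 39, against a median of 2.15 in the 34 other regions. The unscaled odd to LacZ ratio was 7.0 to 9.56 in the TNNT2 regions, at ranks 1 to 6, against a median of 2.29 in the other regions. The other regions ranged widely, with even to LacZ ratios of 0.550 to 34.4 and odd to LacZ ratios of 0.213 to 9.30. Regions of SREK1, NCL and PRRC2C had higher even to LacZ ratios than any TNNT2 region. A region of TRIM44 was the 1 outside TNNT2 with an odd to LacZ ratio above the lowest TNNT2 value. Among the 39 regions, none outside TNNT2 reached the lowest TNNT2 value in both ratios. That limit was set by TNNT2 itself, so its own 5 regions pass by construction. A further 54 regions were shared by the even and odd lists alone, the DES and TNNT1 places among them. Lacking a LacZ value, those regions have no ratio, so TNNT2 cannot be called the highest over the control. By increasing coordinate, the TNNT2 regions had 48, 75, 139, 127 and 79 LacZ reads per bin. LacZ peaks of 1 bin at a like score were listed from 38, 55, 101, 80 and 72 reads upward, so these LacZ values were not far above the lowest listed ones. The regions of 1 gene come from 1 RNA and are not independent, and this ranking is a description with no test.

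**Figure D2:**
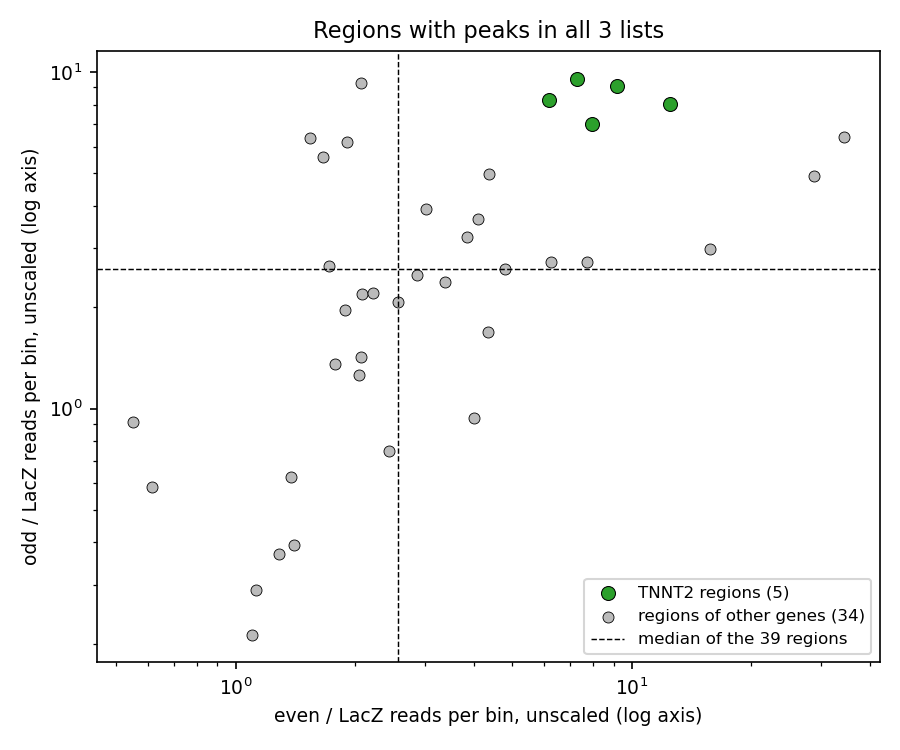
Unscaled ratio of even to LacZ reads per bin (horizontal, log axis) against odd to LacZ reads per bin (vertical, log axis) for the 39 regions with a peak in every list, with dashed lines at the medians. The 5 TNNT2 regions lie together at the upper right, at 6.19 to 12.5 and 7.0 to 9.56.

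The way TNNT2 reads were divided over the 5 common places was compared between lists, since such shares do not depend on library size. The place that began 5370 bases from the start of the gene took 30.7% (29.4 to 32.0) of the even reads in the 5 places, 39.0% (37.7 to 40.3) of the odd reads and 39.5% (35.7 to 43.4) of the LacZ reads. The place at 9790 bases took 18.3% (17.2 to 19.4) of the even, 11.1% (10.3 to 12.0) of the odd and 11.7% (9.29 to 14.4) of the LacZ reads. At these 2 places the even share lay apart from both others beyond counting error, while the odd and LacZ intervals overlapped.

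The other places differed less. The place at 9450 bases took 24.9% of even, 23.4% of odd and 21.6% of LacZ reads, with overlapping intervals. The place at 10640 bases took 14.9% (13.9 to 15.9), 12.5% (11.6 to 13.4) and 14.9% (12.3 to 17.9) in the same order of lists. The place at 4350 bases took 11.2% (10.4 to 12.1), 14.0% (13.1 to 14.9) and 12.3% (9.85 to 15.1). At the places at 10640 and 4350 bases the even and odd intervals did not overlap, and each overlapped the LacZ interval. Across all 5 places the intervals of the odd and LacZ lists overlapped, with 5395 and 643 reads behind them, and the even list had 5121 reads. The LacZ intervals were the widest, so their overlap is weak evidence of likeness.

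**Figure D3:**
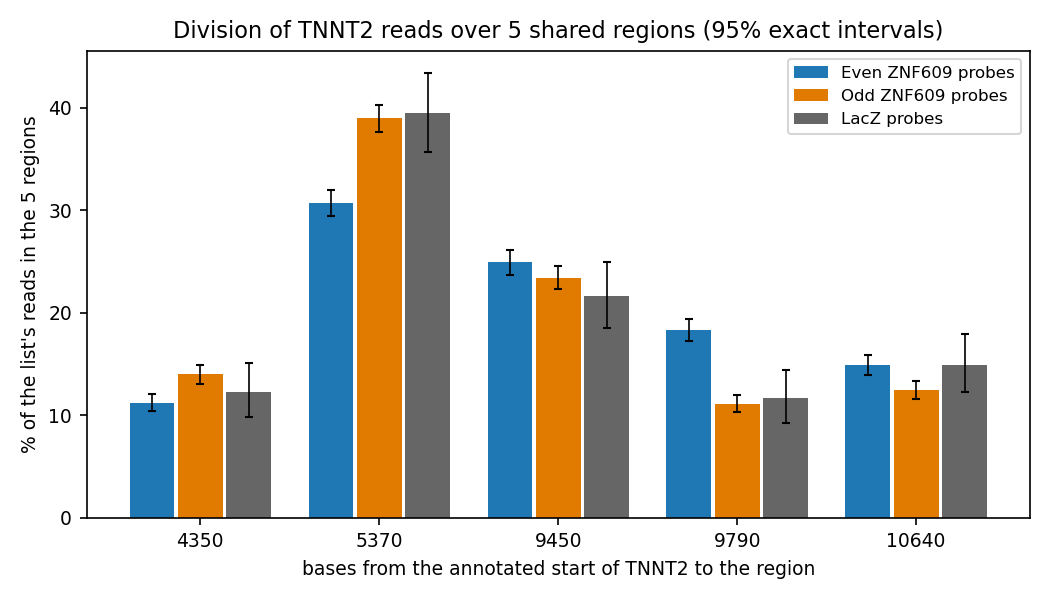
Share of each list's TNNT2 reads, in percent, at the 5 places common to the lists, ordered by distance from the annotated start in bases, with exact 95% intervals as error bars. The even bar is lower than the others at 5370 bases (30.7%) and higher at 9790 bases (18.3%).

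TNNT1 encodes the slow skeletal muscle form of troponin T. Its span (gene ID 7138) runs over chromosome 19, 55132698 to 55149206, on the minus strand. Even probes gave 1 peak in it, odd probes 3 and LacZ probes none. The even peak at 55146301 to 55146470 had 345 reads per bin and ranked 202 of 502, and the identical odd peak had 387 and ranked 116 of 542. Both probe sets thus gave a peak in the same bin, 2736 bases from the start of the gene.

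The other odd peaks of TNNT1 lay 170 bases apart on the side of the gene's start. The one at 55146641 to 55146810 had 564 reads per bin, and the one at 55146981 to 55147150 had 490. By reads these were stronger than the shared peak, at ranks 52 and 69 of 542. By the deposited p-value they were weak, with 0.00960 at rank 530 and 0.00521 at rank 371. The unnamed score, identical wherever lists share a peak, was 0.0158 and 0.0126 here, against at most 0.00925 at the other places of the gene set. Peaks of 1 bin with a score near that of the 55146981 peak (within 2 of the smallest steps of the score) numbered 1 even, 3 odd and 2 LacZ peaks, the weakest with 515, 427 and 148 reads. The absence of even peaks at these 2 places therefore cannot be read as an absence of reads.

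The DES gene, for desmin (gene ID 1674), spans chromosome 2, 219418377 to 219426734. Its 2 even peaks and 2 odd peaks occupied the same bases, and it had no LacZ peak, the nearest one lying 167847 bases from the gene. The wider peak, at 219418661 to 219419170, covered 3 bins and had 577.7 even and 501 odd reads per bin. It ranked 105 of 502 even and 66 of 542 odd peaks. The narrower peak, at 219420021 to 219420190, had 266 even and 273 odd reads per bin and ranked 276 and 198. Even and odd values were close at both places, with even to odd ratios of 1.15 and 0.974.

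The DES peaks lay 284 and 1644 bases from the low end of a span of 8358 bases, 850 bases apart. They held 1999 reads in the even list (0.414%, 0.396 to 0.433) and 1776 in the odd list (0.636%, 0.606 to 0.666). At a score like that of the DES peaks, LacZ peaks of 1 bin were listed from 43 and 44 reads upward, as the weakest of 34 and 28 such peaks. Reads below the caller's limit are not in a peak list, so a low LacZ value at DES was not detectable at this depth, and no ratio to LacZ was computed.

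**Figure D4:**
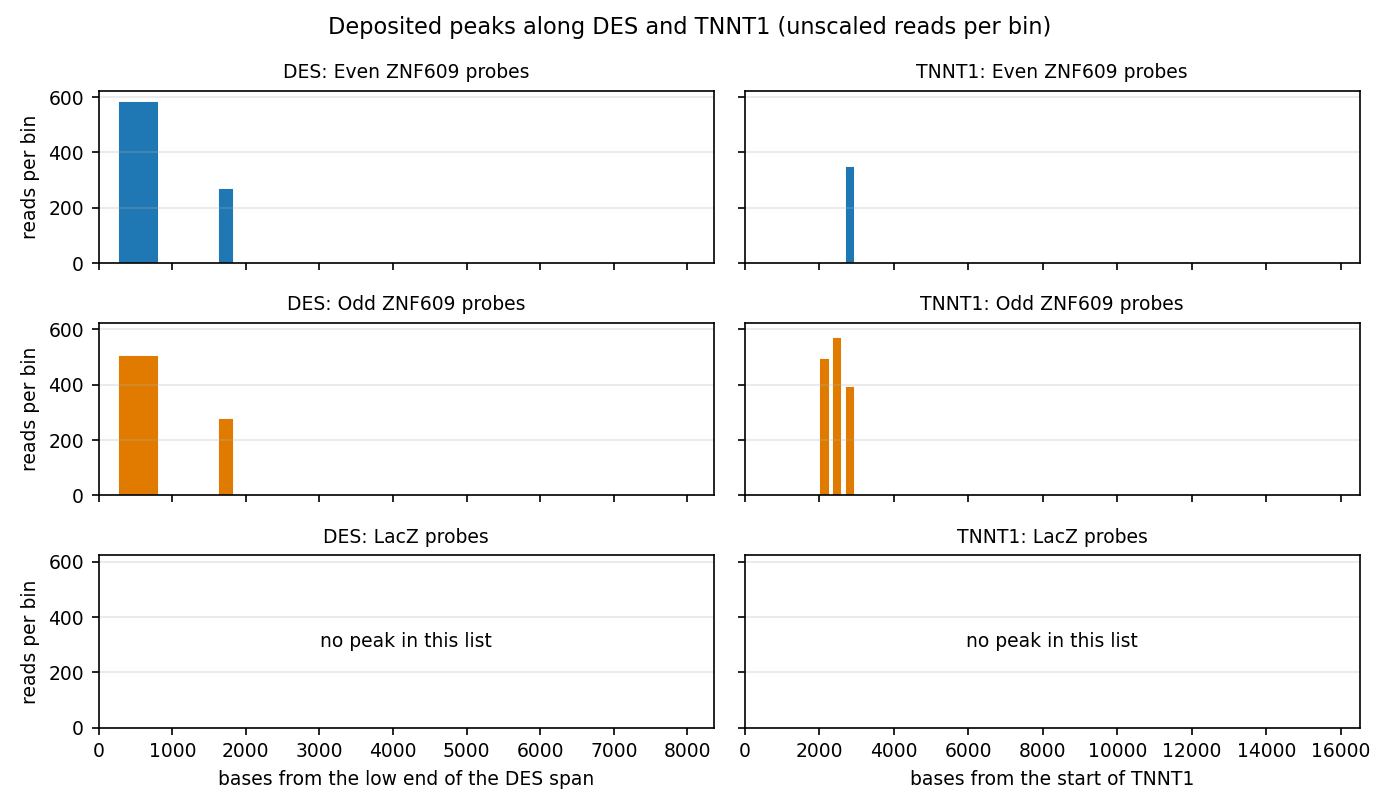
Peaks along DES (by distance from the low end of the gene span) and TNNT1 (by distance from the annotated start) in bases, with bar heights in unscaled reads per bin. Even and odd peaks coincide at both DES places and at 1 TNNT1 place, odd probes give 2 more in TNNT1, and the LacZ list has no peak in these genes.

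ACTC1 encodes cardiac alpha-actin, the actin of the heart's thin filaments and of developing skeletal muscle. Its span (gene ID 70) runs over chromosome 15, 34790230 to 34795549, on the minus strand. It had 1 even peak, at 34793221 to 34793560, with 279 reads per bin, at rank 263 of 502 and with a deposited p of 0.00160. The peak also lies in GJD2-DT, a long noncoding RNA gene whose span covers ACTC1, and the source of its reads is uncertain without strand. Actin genes have closely similar coding sequences, so the division of reads between them by the authors' alignment is uncertain. Odd peaks of 1 bin at a like score were listed from 162 reads upward and LacZ peaks from 55, and neither list had a peak in ACTC1.

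NEB encodes nebulin, the giant protein that lies along the thin filament of skeletal muscle. Its span (gene ID 4703) runs over chromosome 2, 151485339 to 151734476. Its 1 even peak, at 151524231 to 151524400, had 132 reads per bin, at rank 477 of 502 and with a deposited p of 0.00561. This was the weakest peak of the gene set in the even list, against 108 reads for the weakest even peak of all. The same bases lie in RIF1, which encodes a factor of telomere and DNA break maintenance, so the peak cannot be given to NEB rather than RIF1. When peaks lying in more than 1 gene were left out, the even list had peaks in 3 of the 8 genes, which were DES, TNNT1 and TNNT2, as in the odd list.

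TTN encodes titin, and with a span of 281435 bases it is the longest of these genes. The nearest even, odd and LacZ peaks lay 3344219, 6835679 and 10185828 bases from it. MYH3 and MYH8 encode the embryonic and perinatal myosin heavy chains of the thick filament, from the same myosin gene cluster on chromosome 17. The nearest peak to either, in the even list, lay 1876722 bases from MYH8. With no peak in any list, the RNAs of these 3 genes have no value here, and a peak list does not show whether they were captured below the limit or were absent from the cells.

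Within lists, the odd peaks of the gene set stood highest. By reads per bin, 7 of the 10 even peaks, all 13 odd peaks and 2 of the 5 LacZ peaks lay above the middle of their list. The median ranks were 142 of 502 even, 69 of 542 odd and 484 of 722 LacZ peaks. Without TNNT2, the median rank was 263 for the 5 even peaks and 69 for the 5 odd peaks. The 5 even peaks include those in NEB and ACTC1, which also lie in other genes, and the 5 odd peaks include the 2 TNNT1 peaks that ranked low by p-value. Ranked by the deposited p-value, the median rank was 87.5 even and 43 odd with TNNT2, and 174 even and 85 odd without it.

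**Figure D5:**
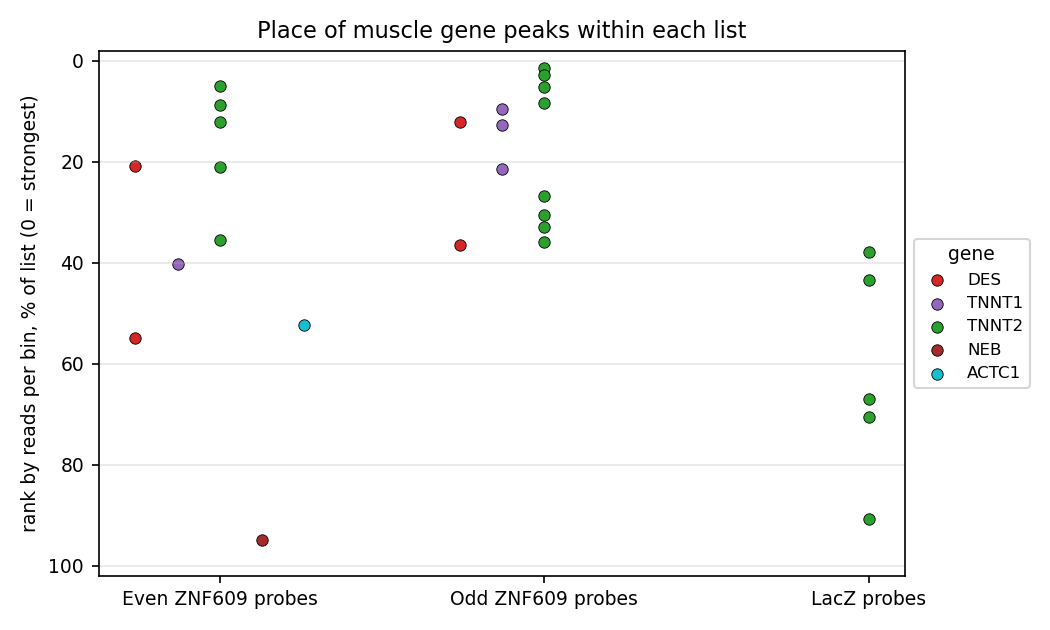
Rank of each peak by reads per bin as a percent of its list's length (vertical, 0 is the strongest), by probe set and gene. The 13 odd peaks all lie above the middle of the list, from rank 8 to rank 198 of 542, while the 5 LacZ peaks, all of TNNT2, lie from rank 273 to rank 656 of 722.

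Of the 10 even peaks of the gene set, 8 overlapped an odd peak, against 18.5% of all even peaks, and 5 overlapped a LacZ peak, against 14.7%. Of the 13 odd peaks, 8 overlapped an even peak, against 17.3% of all odd peaks, and 5 overlapped a LacZ peak, against 16.2%. Every one of the 5 LacZ peaks overlapped an even and an odd peak, against 10.2% and 12% of all LacZ peaks. With TNNT2 left out, 3 of the other 5 even peaks overlapped odd peaks and 0 of 5 a LacZ peak, numbers too small to set apart from the whole list by their intervals (60.0%, 14.7 to 94.7, and 0%, 0 to 52.2). All 8 places common to the even and odd lists were identical to the base, which for peaks built from fixed bins shows agreement to the bin and no finer.

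At those 8 places the even to odd ratio of reads per bin was between 0.748 and 1.56, with a median of 0.992. Over the 93 regions with an even and an odd peak, it ran from 0.222 to 19.0 with a median of 1.31, with quartiles of 0.891 and 2.39. The TNNT2, TNNT1 and DES places stood at ranks 39 to 76 of 93 when ordered by the even to odd ratio. None was near an extreme, but the 8 places leaned toward the odd list, with an upper quartile of 1.14 that was below the median of the 93 regions.

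Other genes of muscle were counted in 6 lists with 114 annotated genes beyond the 8. Of these, 11 had a peak (9.65%), against 4.22% of all protein-coding genes. They were 5 genes with even (4.39%), 4 with odd (3.51%) and 7 with LacZ probes (6.14%), against 1.54%, 1.64% and 2.22% of all protein-coding genes. The share was thus above that of all genes with the control probes as well. These lists were chosen with earlier results of these data known and were not matched to all genes for expression, so the difference was not tested. Of the 11, 0 had peaks from both ZNF609 probe sets without a LacZ peak, and with 4.96% of all genes with a peak in that class, a count of 0 in 11 is close to the background. The 23 further thick filament genes, which include other striated muscle myosins, had no peak. Smooth muscle markers (7 genes) and blood and immune markers (6 genes) had none either. With a peak in 4.22% of all protein-coding genes, a count of 0 in lists of 23, 7 or 6 genes is close to the background. Of the 8 markers of the skeletal muscle lineage, DES and CDH15 had a peak, and MYOD1, MYOG and MYF5, which encode myogenic transcription factors, had none. Among 4 epithelial markers, KRT18 had an odd peak with 155.5 reads per bin.

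Of the 17 further thin filament genes, the tropomyosin genes TPM1 and TPM2 had peaks, and these were LacZ peaks alone. TPM2, whose product lies along actin beside troponin, had 287 reads per bin at rank 76 of 722, and the 2 TPM1 peaks had 142 and 141.5. Among 23 further genes of titin's partners and the Z-disc, MYPN, which encodes the Z-disc protein myopalladin, had 2 even peaks with 1207 and 1242 reads per bin at ranks 28 and 26 of 502. Both MYPN peaks lay in bins where the unnamed score held a fixed value of 0.01, which none of the peaks of the 8 genes did.

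Among 20 further genes of desmin's partners and the membrane scaffold, NES, PLEC, VCL and SGCZ had peaks. NES encodes nestin, an intermediate filament protein of muscle and nerve precursors, and had 2 even, 1 odd and 2 LacZ peaks. Its even peaks reached 716 reads per bin and overlapped no peak of another list, while its odd peak, with 415.2 reads per bin, overlapped a LacZ peak with 63. The even peak with 716 began at 156671831, directly beside the end of the odd peak at 156671830, so these are adjoining bins rather than separate places. PLEC encodes plectin, which links desmin to Z-discs and membrane, and had 1 even peak with 245 reads per bin at the same bases as an odd peak with 227. PLEC had 3 further odd peaks and 2 LacZ peaks elsewhere in the gene, and the LacZ peak with 72 reads per bin overlapped an odd peak with 237. VCL, for vinculin, had 1 even peak with 163 reads per bin. SGCZ, for zeta-sarcoglycan, had a LacZ peak alone, with 960.5 reads per bin at rank 6 of 722, in bins with the fixed score.

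The remaining muscle genes with a peak were few. CDH15 encodes M-cadherin, an adhesion protein of myoblasts, and had an even peak with 221 reads per bin that overlapped a LacZ peak with 94.3. MEF2D, for a muscle transcription factor, had an odd peak with 112 reads per bin at rank 534 of 542. RYR1, for the calcium release channel of skeletal muscle, had an odd peak with 120 reads per bin at rank 504. ATP2A2, for a calcium pump of the sarcoplasmic reticulum, had a LacZ peak with 217.5 reads per bin at rank 128 of 722. For comparison, the targeted gene ZNF609 had 1 even peak, 3 odd peaks and 0 LacZ peaks. They had at most 704 even and 394 odd reads per bin, below the strongest TNNT2 peak in both lists. Odd peaks of DES and TNNT1 reached 501 and 564, also above 394, while their even peaks stayed below 704. How abundant each RNA was in the cells is not in these values, so they do not rank how well each was captured.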

How the data were processed

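RNA recovered from RD cells in 3 pull-downs was sequenced with 1 library for each probe set. Per the labels' protocols, RNA was purified on miRNeasy columns and amplified with Ovation kits. Tools named in the submitters' processing notes were STAR 2.5.2b, SAMtools, Picard, bedtools, Trimmomatic and bcl2fastq 2.0.2, with GRCh38 as the build. The names of the deposited lists give Piranha as the caller; its settings were not given in the sources used. No list has a header. The signal deposited by the authors was read as reads per bin of 170 bases, because peaks held whole reads (tolerance 0.02) and lay on that grid. Every p-value that the authors deposited was below 0.01. The score deposited by the authors in the last column is unnamed, and it was used here for description and to mark peaks at its fixed value of 0.01.

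Gene spans and symbols came from RefSeq on GRCh38.p14 and strands from its promoter table, which lacked DES and MYH3. Coordinates count from 1. Overlaps, ranks, shares and exact Clopper-Pearson intervals were computed with Python 3.11.15, pandas 2.3.3 and scipy 1.17.1, and the overlap functions were tested on simulated lists. Total library depth is unknown from the peaks, so reads are set side by side unscaled. The genes, gene lists and comparisons were chosen with earlier results of these data known. Named were the 8 genes, every gene of the muscle lists with a peak, and genes overlapping a peak of the 8. KRT18 and the genes compared with TNNT2 by ratio to LacZ were named after their values were seen. Alternatives covered the p-value limit, the overlap, list length, fixed-score bins, gene spans, peaks in several genes and the ranking measure.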

Additional observations from a re-analysis of the deposited data

How the results depend on the processing

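Of 101 values under alternatives, 72 stayed close (counts and ranks within 1.5 times, shares of reads within their counting interval) and 29 moved. Widening the spans by 1000 bases moved none. A reciprocal overlap of 50% enters only the count of shared places, where the peaks were identical to the base, so it could move no value. The values under that overlap are among the 72 and say nothing of how stable the results are. Trimming to 502 peaks, the length of the even list, left that list as it was, so values of the even list alone could not move. No peak of the gene set lay over a fixed-score bin, so leaving such peaks out could not move its counts of genes or peaks. These values are also among the 72, so that tally overstates how stable the results are. With p-values below 0.001, the even list had peaks in 3 genes and the LacZ list in 0 with 0 peaks. At that limit 8 places rather than 3 were shared by even and odd and free of LacZ peaks, since the 5 TNNT2 places lost their LacZ peaks. Among the 3 genes and 8 places, TNNT1 passed narrowly, as its even peak had a deposited p of 0.000999. The shares of reads were then 2.89% even, 7.15% odd and 0% LacZ, and the even median rank was 76.5. In lists trimmed to 502 peaks, 3 LacZ peaks remained with 0.245% of reads and a median rank of 284, 5 places were shared and free of LacZ peaks, and the odd share was 3.39%. Without peaks over fixed-score bins, the shares were 2.00% even, 3.80% odd and 0.528% LacZ, and the LacZ median rank was 315. Leaving out peaks in more than 1 gene gave 3 even genes and an even share of 1.55%. Ranked by p-value, the median rank was 87.5 even and 43 odd. Without TNNT2, added after the data were seen, there were 5 even, 5 odd and 0 LacZ peaks in 0 LacZ genes, with shares of 0.629%, 1.15% and 0%, and the even median rank was 263. The order of the shares of reads, odd above even above LacZ, was the same in each of these settings. No paired analysis was possible because there was 1 library for each probe set.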
